A study of Mus musculus with 24 samples.

Results

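Musclin and interleukin 15 are peptides that muscle fibres secrete, and their genes, Ostn and Il15, are described here in the tibialis anterior of mice lacking the histone chaperone HIRA in myofibres. All probe rows annotated with either symbol were taken, which gave 2 of 26423 rows, 1 for Ostn and 1 for Il15, among 17742 named genes. The pair was chosen on their difference between knockout and control muscle in these same animals, so their levels and differences are given as a description and carry no test.

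The knockout animals had the genotype Myf6 cre/+; Hira flox/-, with 1 floxed and 1 null copy of Hira, and the control animals Myf6 cre/+; Hira flox/+, with 1 floxed and 1 intact copy. Every animal of both groups thus carried the Cre recombinase at the Myf6 locus, which is active in myofibres, and the null copy was present in all cells of the knockout. The mice were 6 months old, on a mixed C57BL6/J and 129S1/SvImJ background, with 4 animals a group and 3 hybridisations of each animal's RNA. Animals are numbered 1 to 4 within a group, as names only.

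Musclin, also called osteocrin, resembles the natriuretic peptides and binds their clearance receptor, NPR3, which removes natriuretic peptides from the extracellular space. The natriuretic peptides themselves act through the guanylyl cyclase receptors NPR1 and NPR2 and the second messenger cGMP. Interleukin 15 is a cytokine that is held on the surface of the producing cell by its own receptor chain, IL15RA, and presented to lymphocytes that carry the shared chains IL2RB and IL2RG. It is best known for keeping natural killer cells and memory T cells alive, and skeletal muscle is a tissue rich in its transcript.

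The tissue was checked first. The general myofibre genes Acta1, Ckm, Mb, Ttn, Neb and Des were among the brightest probes, with mean intensities of 85000 to 339000 in knockout and 108000 to 393000 in control muscle. The Hira probe stood at 8.63, 9.30, 8.52 and 8.83 log2 units in knockout animals 1 to 4, against 8.85, 9.11, 8.92 and 8.99 in control animals 1 to 4. The groups overlapped and the difference of -0.15 ± 0.17 (SE) did not pass the test (limma, adjusted p = 0.623). The labels do not say whether the probe lies inside the deletion, so it does not check the genotypes. Without knockout animal 2, which had the highest Hira value of all, the difference between the groups was 2.55 log2 units for Ostn and -0.86 for Il15, close to the values with all animals given below.

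Knockout animal 3 stood apart in a few genes of immune and matrix cells. Spp1, the osteopontin gene, had a level of 25020 in it and 1093 to 2956 in the other knockout animals, Cd68, a macrophage gene, 10900 and 946 to 2035, and Il7r, the interleukin 7 receptor gene, 1338 and 224 to 276. The same animal had the highest Ostn and the lowest Il15 of its group. Without it the difference was 2.36 log2 units for Ostn and -0.82 for Il15. The receptor genes described below kept their calls without it, with Npr3 at 2.04 (limma, adjusted p = 0.0118) and Il15ra at -0.53 (adjusted p = 0.043).

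Ostn was several-fold higher in knockout muscle. Its probe intensity, as the level of each animal, was 5257, 7437, 11100 and 8620 in knockout animals 1 to 4, against 1313, 1785, 1207 and 1202 in control animals 1 to 4. The dimmest knockout animal was 2.94-fold above the brightest control animal, so the groups lay far apart. On the log2 scale the mean was 12.93 ± 0.45 (SD, n = 4) in knockout and 10.41 ± 0.27 in control muscle. The difference of 2.53 is a 5.76-fold higher level in the knockout, and 10 of the 17742 genes (0.0564%) rose by more.

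**Figure D1:**
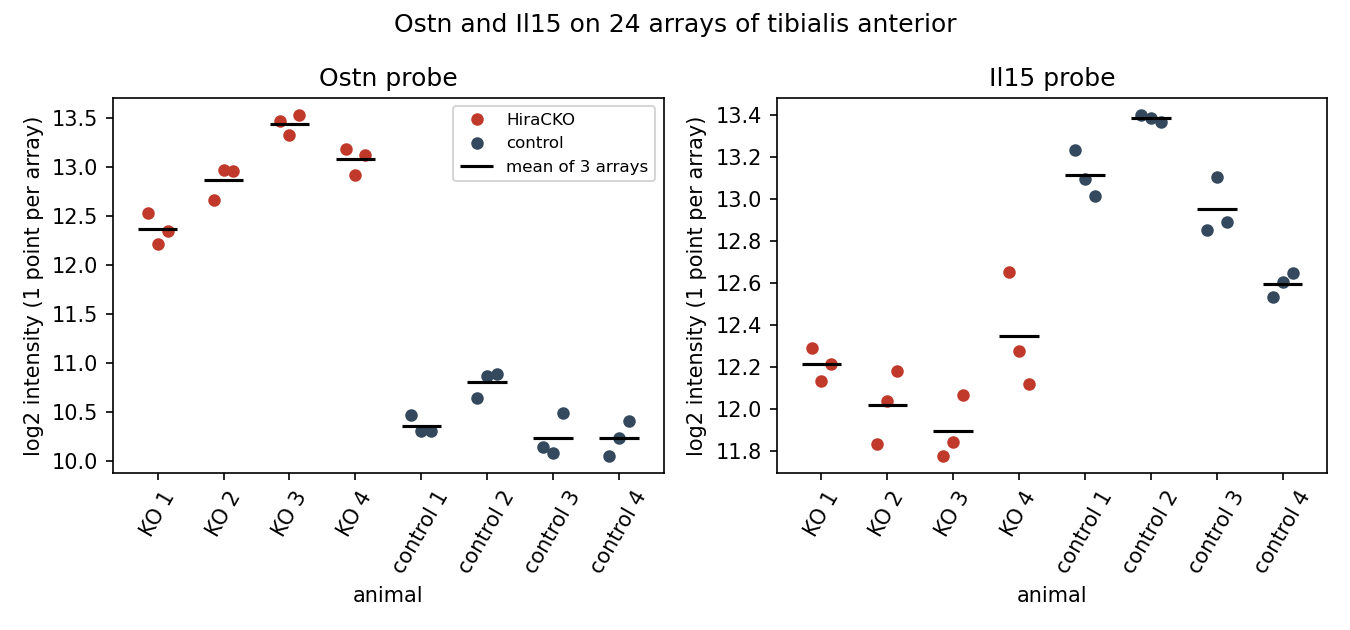
Log2 probe intensity of Ostn (left) and Il15 (right) on each of the 24 arrays, 3 points an animal, with a line at the animal's mean; knockout (KO) animals stand left of control animals. All 12 knockout arrays lie above all 12 control arrays for Ostn, and 11 of 12 knockout arrays lie below all control arrays for Il15.

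Il15 differed in the opposite direction and by less. Its level was 4747, 4144, 3809 and 5212 in knockout animals 1 to 4, against 8859, 10680, 7911 and 6182 in control animals 1 to 4. The groups did not overlap, but the brightest knockout animal, number 4, came within 1.19-fold of the dimmest control animal, also number 4. The log2 mean was 12.12 ± 0.20 (SD, n = 4) in knockout and 13.01 ± 0.33 in control muscle, a difference of -0.89 or a 1.86-fold lower level, and 159 genes (0.896%) fell by more. For comparison, all animals of one group lay beyond all animals of the other in 7.24% of genes in the direction of Ostn and in 10.2% in the direction of Il15. Since the pair was picked on this contrast, nothing is read from either share.

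With both groups pooled, repeated hybridisations of an animal lay closer together than animals did. The SD between hybridisations was 0.155 for Ostn and 0.146 for Il15, and the SD between animals of a group was 0.371 and 0.273 in turn. For Il15 in knockout muscle the spreads were closer, with 0.201 between animals and 0.079 to 0.275 between hybridisations of single animals. For Ostn all 12 knockout arrays (4744 to 11795) exceeded all 12 control arrays (1060 to 1899). For Il15 the first hybridisation of knockout animal 4, at 6434, exceeded all 3 arrays of control animal 4 (5919 to 6410), while its other arrays were at 4955 and 4442. Taken by hybridisation number, the Ostn difference was 2.63, 2.48 and 2.46 log2 units, and the Il15 difference was -0.87, -0.97 and -0.83. Both probes were far above the low end of the scale, as no array had its 5th percentile above 125.

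The order of the animals differed between the genes in the knockout, and both genes were highest in animal 2 in the control. Among knockout animals Ostn was highest in animal 3 and lowest in animal 1, whereas Il15 was highest in animal 4 and lowest in animal 3. The Il15 means of knockout animals 1 to 4 were 12.213, 12.017, 11.895 and 12.348 log2 units. With SDs between hybridisations of 0.079, 0.175, 0.153 and 0.275 in turn, the Il15 order of animals with close means is uncertain. Among control animals both genes ran from number 2, the highest, through 1 and 3 to 4. For Ostn, however, numbers 1, 3 and 4 lay close, at 10.358, 10.237 and 10.231 log2 units. Their SDs between hybridisations were 0.093, 0.222 and 0.181, so the order of these animals is uncertain. The animals fall into a pair of number series, 1 and 2 of each group with the lower numbers and 3 and 4 with the higher, and the labels do not say what a series stands for. Ostn averaged 12.61 in knockout and 10.58 in control animals of the lower series (4.08-fold), and 13.26 against 10.23 in the higher series (8.12-fold). Il15 averaged 12.11 in knockout and 13.25 in control animals of the lower series (2.19-fold lower), and 12.12 against 12.77 in the higher one (1.57-fold lower). Since the groups did not overlap, the direction could not differ between the series, which hold 2 animals a group. The size of the Ostn difference was greater in the higher series and that of Il15 in the lower one, and whether the series differ was not tested.

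The transcript of the receptor to which musclin binds rose with Ostn. Only transcripts were measured here, not the peptides or their receptors. Npr3, the clearance receptor, had levels of 1908, 3934, 2410 and 6702 in knockout animals 1 to 4, against 1416, 812, 635 and 894 in control animals 1 to 4. The groups did not overlap, although knockout animal 1 and control animal 1 were close and the knockout animals spread over more than a 3-fold range. The log2 mean was 11.70 ± 0.80 (SD, n = 4) in knockout and 9.81 ± 0.48 in control muscle, a difference of 1.88 ± 0.36 (SE), or 3.69-fold (limma, adjusted p = 0.00835). In each number series alone the call was lost, at 1.35 (adjusted p = 0.2) and 2.42 (adjusted p = 0.0746) with 2 animals a group.

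**Figure D2:**
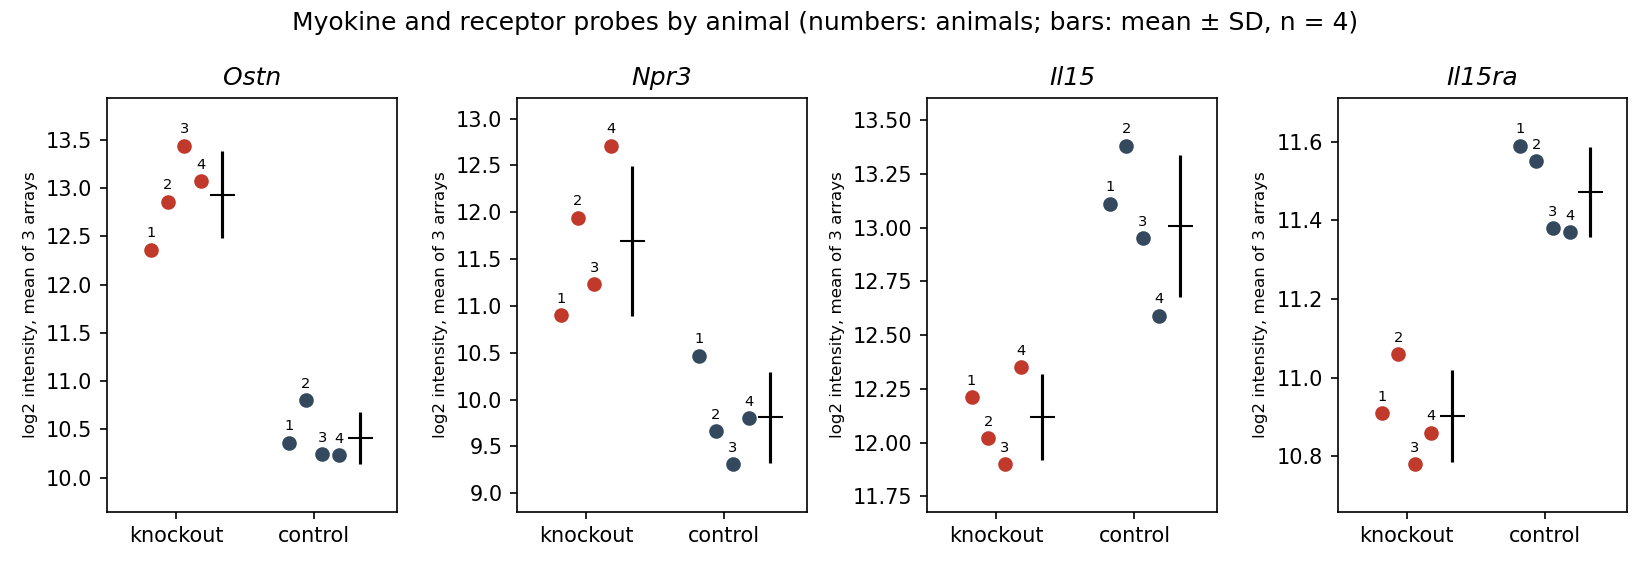
Log2 probe intensity of Ostn, Npr3, Il15 and Il15ra, each point the mean of 3 arrays of 1 animal, labelled with the animal's number; knockout stands left of control, and bars give the mean ± SD (n = 4). Ostn and Npr3 are higher, and Il15 and Il15ra lower, in all knockout animals than in any control animal.

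The signalling receptors of the natriuretic peptides did not pass the test. Npr2, the receptor of C-type natriuretic peptide, stood at 12.60 ± 0.12 log2 units (SD, n = 4) in knockout and 12.75 ± 0.19 in control muscle, a difference of -0.15 ± 0.13 (SE; adjusted p = 0.489, limma). Npr1, the receptor of the atrial and B-type peptides, stood at 8.36 ± 0.12 in knockout and 8.58 ± 0.09 in control muscle, a difference of -0.22 ± 0.11 (SE; adjusted p = 0.250). Among the ligands, Nppc, which encodes the C-type peptide, fell. Its levels were 340, 384, 310 and 362 in knockout animals 1 to 4, against 497, 498, 438 and 448 in control animals, with no overlap. The log2 difference was -0.43 ± 0.11 (SE; 1.35-fold lower; adjusted p = 0.0378), a call that was lost on leaving out any 1 animal other than knockout animal 2 (adjusted p = 0.0544 to 0.126), or the first or second hybridisation (0.0653 and 0.0715). The other ligand genes, Nppa (0.04 ± 0.25, SE) and Nppb (0.30 ± 0.20), did not pass.

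Of the 15 genes listed for the natriuretic peptide system, 1 rose and 1 fell, with a median log2 difference of 0.035, where 4.28% of all 17742 genes rose, 5.01% fell and the median was -0.066. Over all genes, 4264 (24%) had an unadjusted p under 0.05. The list also held the protease gene Furin, whose product cleaves many prohormones, at 0.55 ± 0.19 (SE; adjusted p = 0.0944), and Prkg1, the cGMP-dependent protein kinase I, at 0.59 ± 0.18 (SE; adjusted p = 0.0694). Both lay above 0 on the log2 scale without passing in this fit. Under several of the alternatives given below, 2 genes of the list were called higher. The phosphodiesterase genes that degrade cGMP, Pde2a, Pde5a and Pde9a, lay between -0.33 and -0.14, and Corin, which encodes a protease of the atrial peptide, was too dim in both groups for a fold. In all, 4 of the 15 had an unadjusted p under 0.05, near the 24% over all genes.

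The transcript of the interleukin 15 receptor chain fell with that of the cytokine. Il15ra had levels of 1925, 2133, 1755 and 1865 in knockout animals 1 to 4, against 3088, 3007, 2665 and 2646 in control animals 1 to 4. The groups did not overlap, and each was tight. The log2 mean was 10.90 ± 0.12 (SD, n = 4) in knockout and 11.47 ± 0.12 in control muscle, a difference of -0.57 ± 0.11 (SE), or 1.49-fold lower (limma, adjusted p = 0.0109). The difference was -0.59 (adjusted p = 0.163) in the lower number series alone and -0.55 (adjusted p = 0.0696) in the higher one, which ended the call with 2 animals a group but hardly moved the size. The lymphocyte chain Il2rb stood at 0.06 ± 0.14 (log2 difference, SE; adjusted p = 0.828), and Il2rg was at or near the floor of the scale in both groups.

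**Figure D3:**
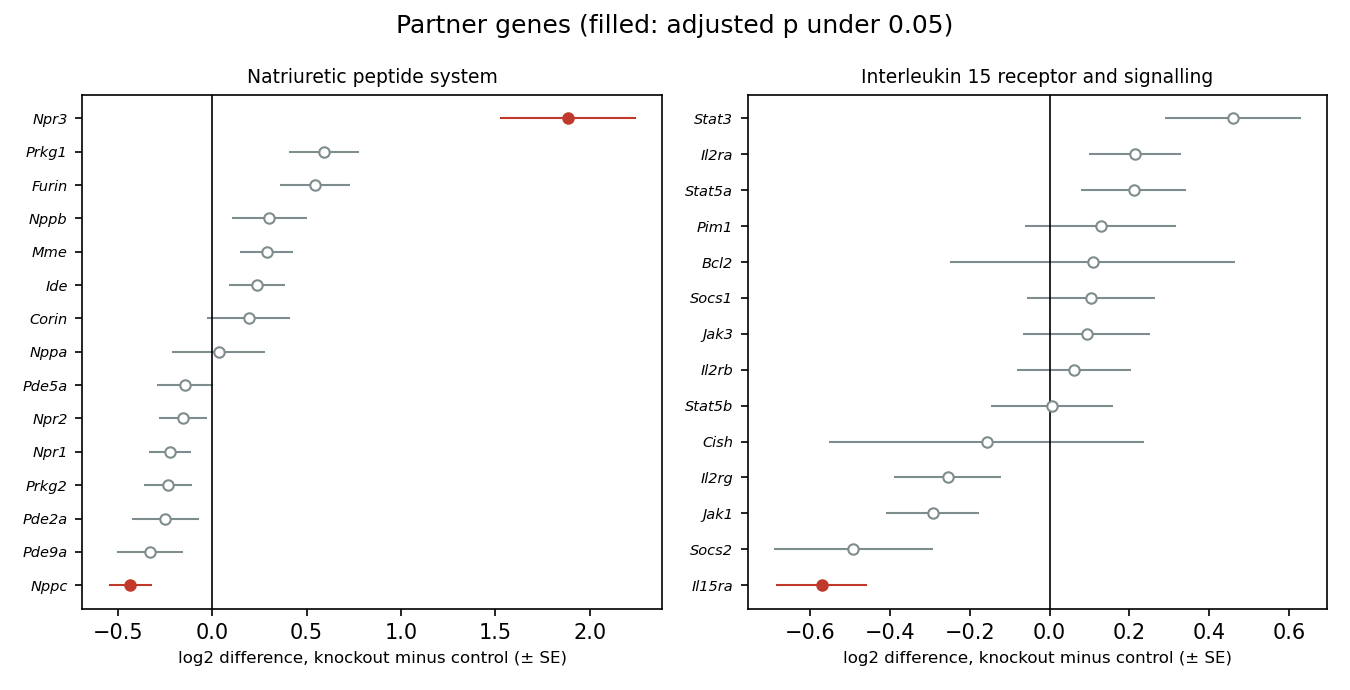
Log2 difference, knockout minus control, with its SE for the 15 genes of the natriuretic peptide system (left) and the 14 genes of interleukin 15 reception and signalling (right); filled points passed the test over all genes. Npr3 stands apart at 1.88, and Nppc and Il15ra are the lowest of their lists.

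Of the 14 genes listed for interleukin 15 reception and signalling, 0 rose and 1 fell, Il15ra, where 4.28% of all genes rose and 5.01% fell. The median log2 difference was 0.077. Of the kinases and transcription factors beneath the receptor, Jak1 was at -0.29 ± 0.12 (SE; adjusted p = 0.150), Stat3 at 0.46 ± 0.17 (adjusted p = 0.122) and Stat5b at 0.01 ± 0.15 (adjusted p = 0.984). Socs2, a feedback inhibitor of cytokine signalling, was at -0.49 ± 0.20 (SE; adjusted p = 0.158). These 4 did not pass, and 4 of the 14 genes had an unadjusted p under 0.05, also near the 24% over all genes. Jak1, and Bcl2 of the same list, had 2 probe rows each, and the brighter row stood for each gene. With every row as a feature, 2 genes of the list were called, both lower. Among 8 measured relatives of the cytokine and its receptors (Il4, Il7, Il9, Il21 and the receptor genes Il4ra, Il7r, Il9r and Il21r), limma called 0 and 0 had an unadjusted p under 0.05. The genes of smallest p were Il21, dim in both groups, and Il4ra at -0.35 ± 0.16 (SE; adjusted p = 0.219).

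Most other myokine genes did not pass. Of 38 listed, 3 rose and 1 fell, where 4.28% of all genes rose and 5.01% fell. The median log2 difference was -0.005, and 14 of the 38 had an unadjusted p under 0.05, where 24% of all genes did. Follistatin, Fst, a secreted inhibitor of myostatin, had levels of 946, 1298, 740 and 665 in knockout animals 1 to 4, against 432, 297, 328 and 394 in control animals 1 to 4, a 2.46-fold rise (log2 difference 1.30 ± 0.21, SE; adjusted p = 0.00316). Fgf6, a fibroblast growth factor of muscle, rose 1.80-fold (0.85 ± 0.12, SE; adjusted p = 0.00119). Gdf11, a close relative of myostatin, rose 1.43-fold (0.51 ± 0.14, SE; adjusted p = 0.0477), a call lost on leaving out any 1 animal other than control animal 2 (adjusted p = 0.0579 to 0.122), or the first or second hybridisation (0.164 and 0.103).

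Vegfb, a vascular endothelial growth factor, fell 1.58-fold (-0.66 ± 0.12, SE; adjusted p = 0.0066), with levels of 39270 to 43610 in knockout and 57220 to 75690 in control animals. Myostatin itself, Mstn, was at -0.05 ± 0.14 (SE; adjusted p = 0.851). Fndc5, the precursor of irisin, was at 0.46 ± 0.15 (adjusted p = 0.0842) with no overlap between groups, and Il6 at 0.14 ± 0.13 (adjusted p = 0.539) near the low end of the scale. The differences of the 38 ran from -0.66 at Vegfb to 1.30 at Fst, and that at Ostn was greater. Since Ostn was picked on this contrast, nothing is read from its rank.

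**Figure D4:**
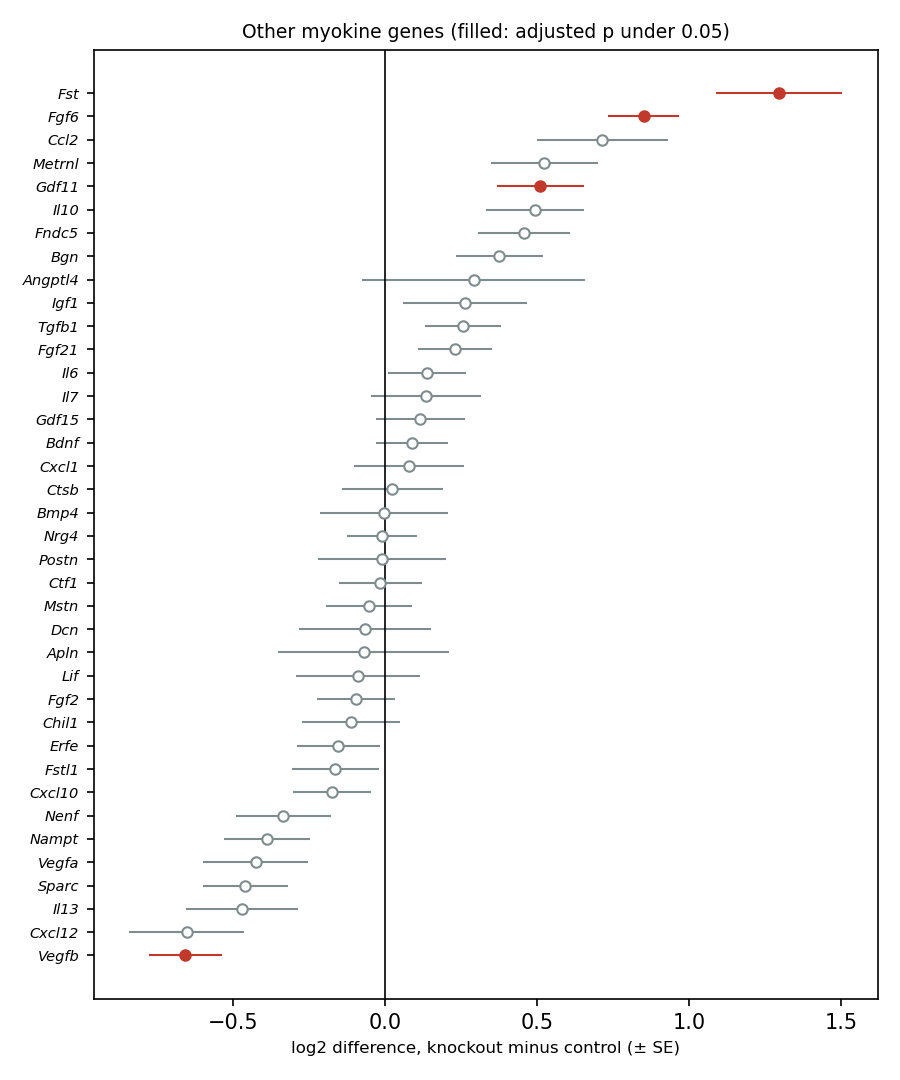
Log2 difference, knockout minus control, with its SE for 38 other myokine genes in order of size; filled points passed the test over all genes. Fst, Fgf6 and Gdf11 rose and Vegfb fell, and the remaining 34 open points did not pass.

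In muscle cells, Ostn transcript is known to respond to insulin and to the transcription factor FOXO1, so genes of that arm were read beside it. Of 12 measured, 4 rose and 1 fell, where 4.28% of all genes rose and 5.01% fell. The median log2 difference was 0.12. The kinase gene Akt1 rose 1.98-fold (0.99 ± 0.12, SE; adjusted p = 0.000658), the FOXO gene Foxo6 rose 1.66-fold (adjusted p = 0.00342), and Foxo4 fell 1.54-fold (adjusted p = 0.00759). The insulin receptor substrate Irs2 rose 1.79-fold (adjusted p = 0.0207), a call lost without knockout animal 2 or 3 or control animal 1 or 4 (adjusted p = 0.0521 to 0.0628). Pdk1 rose 1.68-fold (adjusted p = 0.00777), but this mouse symbol names pyruvate dehydrogenase kinase 1, which acts on mitochondrial fuel use, and without it 3 of 11 rose and 1 fell. Foxo1 itself was at -0.02 ± 0.15 (SE; adjusted p = 0.941).

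Whole muscle holds more than fibres, and in such samples fewer cells of a type and less RNA per cell cannot be told apart. Bone-forming cells also make Ostn. Of 9 measured osteoblast and bone genes, 1 rose, Dmp1, a bone matrix protein (1.51-fold; adjusted p = 0.0277, and 0.0536 to 0.0814 without knockout animal 2 or 4 or control animal 1 or 2); it was also lost without hybridisation 2 or 3 (0.0557 and 0.0521). Dmp1 was near the low end of the scale in control animals, at 120.2 to 163.3. The share of all genes that rose was 4.28%. The median of the bone list was -0.18, and its summed level ranged from 11620 to 34970 in knockout and from 12140 to 17130 in control animals. The top of the knockout range is the Spp1 level of animal 3, and without Spp1 the sums were 9529 to 10990 in knockout and 10450 to 13310 in control animals. The osteocalcin gene Bglap was at 0.05 ± 0.11 (log2 difference, SE; adjusted p = 0.823). The part of bone cells in the Ostn level was not tested.

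Cells other than fibres also make Il15, and some of their markers were lower. Of 12 endothelial markers 3 fell, Gpihbp1 (2.09-fold lower), Icam2 and Emcn, where 5.01% of all genes fell. The median of the list was -0.41, with a summed level of 77110 to 107600 in knockout against 115500 to 146500 in control animals. The call for Emcn was lost without 1 of 6 animals, which were knockout animals 3 and 4 and all 4 control animals (adjusted p = 0.0513 to 0.104), and without the second hybridisation (0.0585). Of 7 smooth muscle and pericyte markers 3 fell, Acta2, Rgs5 and Tagln. Tagln was near the low end of the scale in knockout animals, at 128.7 to 137. The summed level of the list was 103200 to 126800 in knockout against 139400 to 168100 in control animals. Of that sum 70.1% to 76.6% is Des, which myofibres express strongly and which is also among the general myofibre markers above. Without Des the median of the other 6 was -0.42 and the sum 25890 to 31080 in knockout against 35240 to 43970 in control animals. The groups did not overlap in summed level in either list, with or without Des, and the part of these cells in the Il15 difference was not tested.

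Of 11 macrophage markers 1 fell, Cd163 (1.91-fold lower, limma, adjusted p = 0.049), where 5.01% of all genes fell. The median of the list was 0.22, with sums of 22940 to 53070 in knockout and 17980 to 39740 in control animals. The top of the knockout range is animal 3, and without it the knockout sums were 22940 to 31530. The Cd163 call was lost without knockout animal 2, 3 or 4 or control animal 2, 3 or 4 (adjusted p = 0.0656 to 0.13), and in 16 of 26 alternatives in all, over which the log2 difference ran from -1.52 to -0.35. Of 10 fibroblast markers limma called 0, with 4 at an unadjusted p under 0.05, a median of 0.041, and sums of 115300 to 171300 in knockout and 142900 to 166400 in control animals. Gsn, which encodes gelsolin, made up 65.9% to 73.2% of these sums, and without it they were 32150 to 50910 in knockout and 45060 to 51000 in control animals. Pi16 (-0.65 ± 0.25, log2 difference, SE) and Dpt (-0.48 ± 0.18) had the smallest p in that list.

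Markers of the lymphocytes that answer to interleukin 15 were mixed. Of 15 natural killer and T cell markers, 5 (Ncr1, Klrd1, Nkg7, Gzmb and Prf1) were dim in both groups. The other 10 were above that level in at least 1 group, among them the killer cell genes Klrk1 (203 in knockout and 237 in control muscle), Tbx21 (205 and 190) and Gzma (173 and 182). Cd3e, a chain of the T cell receptor complex, rose 1.51-fold (adjusted p = 0.00629), while its companions Cd3d and Cd3g did not pass. Eomes, a transcription factor of killer and memory cells, fell 1.54-fold (adjusted p = 0.0142), a call lost without the second hybridisation (adjusted p = 0.052). In all, 1 of the 15 rose and 1 fell, where 4.28% of all genes rose and 5.01% fell. The median was 0.017, with sums of 14940 to 16840 in knockout and 19010 to 24530 in control animals. The Eomes probe alone, at a mean level of 11654 in knockout and 17917 in control muscle, made up most of these sums, and without it they were 4079 to 4685 in knockout and 3658 to 4173 in control animals. Its level was far above those of the killer cell genes named here. Whether lymphocytes gave the Eomes or Cd3e signal was not tested.

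Slow fibre genes rose in the same animals. Of 5 measured slow fibre markers 4 rose (Atp2a2, Tnni1, Casq2 and Tnnt1), where 4.28% of all genes rose. The median log2 difference was 1.25, with a summed level of 61870 to 86870 in knockout against 28590 to 37970 in control animals. Other probe rows of Atp2a2 gave -0.44 and 1.80. Of 6 measured fast fibre markers limma called 0, and 0 had an unadjusted p under 0.05, with a median of -0.15 and sums of 1513000 to 2239000 in knockout and 1758000 to 2365000 in control animals. Pvalb (-0.35 ± 0.19, log2 difference, SE) and Actn3 (-0.16 ± 0.12) had the smallest p among them. Of the 6 general myofibre markers 0 were called and 2, Neb and Des, had an unadjusted p under 0.05, with sums of 1347000 to 1855000 in knockout and 1748000 to 2040000 in control animals. Their part in the levels of Ostn and Il15 was not tested.

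Genes that stand beside either member on the chromosome did not pass the test. In the gene order of the mouse assembly GRCm38.p6, Ostn lies on chromosome 16, as Hira does, with 76 protein-coding genes between them, and Il15 lies on chromosome 8. Among the 6 nearest measured protein-coding genes of Ostn, namely Tmem207, Il1rap, Gmnc, Uts2b, Ccdc50 and Fgf12, limma called 0, and 3 had an unadjusted p under 0.05, as did 24% of all genes. Their log2 differences ran from -0.44 to 0.46, the highest at Uts2b, which was dim in both groups, with a lowest adjusted p of 0.0824 at Ccdc50 (-0.44 ± 0.14, SE). Among the 6 of Il15, namely Gab1, Usp38, Inpp4b, Zfp330, Rnf150 and Tbc1d9, limma called 0, and 1 had an unadjusted p under 0.05. Those differences ran from -0.18 to 0.38, with a lowest adjusted p of 0.142 at Inpp4b, which was higher.

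The genes whose levels ran most like Ostn over the 8 animals were Mns1 (Pearson r = 0.994), Fndc10 (0.991), Madd (0.989), Chpf (0.983) and Gprc5b (0.983). Chpf encodes an enzyme of chondroitin synthesis and Gprc5b an orphan receptor. Much of such an r is the gap between the groups, since 370 of 14302 eligible genes exceeded 0.9. With each group's mean removed, r was 0.90 for Mns1, 0.845 for Fndc10, 0.846 for Madd, 0.669 for Chpf and 0.695 for Gprc5b. Most opposed were Fam89a (-0.997), Fam163a (-0.989) and Gtf3a (-0.982), with -0.945, -0.819 and -0.780 after removal of the group means. The genes were picked as extremes of r over these same animals, which also favours a large r within groups. These points share arrays and scaling, and no p is given.

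For Il15 the likest genes were Txndc5 (r = 0.986), Psmg1 (0.982), Nelfe (0.981), Acat1 (0.977) and Ccdc157 (0.977), and 446 of 14302 genes exceeded 0.9. Psmg1 encodes an assembly chaperone of the proteasome and Acat1 a mitochondrial acetyl-CoA acetyltransferase. With the group means removed, r was 0.937, 0.915, 0.946, 0.892 and 0.889 in turn. These genes too were picked on r over the same animals, so nothing is read from the r within groups. Most opposed were Dtnb (-0.984), which encodes beta-dystrobrevin, Cmtm7 (-0.982) and Fam161b (-0.971), with -0.926, -0.942 and -0.877 within groups. The levels of Acat1 averaged 13.77 log2 units in knockout and 14.54 in control muscle, and those of Dtnb 11.34 in knockout and 10.59 in control muscle.

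Over all genes, 1647 of 17742 passed, or 9.28%. Of the 74 different genes in the lists for natriuretic peptides, interleukin 15, its relatives and other myokines, 4 rose and 3 fell, a share near that background.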

How the data were processed

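Labelled total RNA was hybridised, per the labels' protocols, and the deposited table holds 1 linear probe intensity per array. Which scanner, background correction and scaling the authors used is not stated in the labels. All 24 arrays had the same median, 626.429, and up to 5.37% of an array's values were at or below 0. The 4 animals a group, not the number of arrays or a counting depth, limit precision. Intensities below 38.8, the 5th percentile of all values, were set to it, log2 was taken and 3 hybridisations were averaged per animal, which is the replicate. Symbols, from an old annotation, were updated through a RefSeq gene table: 18213 rows matched a symbol, 2126 a synonym and 38 neither, while 6046 had none. A gene's brightest row stood for it. A probe may also bind other transcripts, which was not tested.

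The fit was limma 3.58.1 (lmFit, eBayes, R 4.3.3) on 17742 genes, tested on simulated data, with Benjamini-Hochberg adjustment over all of them at 0.05. A level at or below 125, the highest 5th percentile of any array, is called dim. Genes named are the receptors of both peptides, up to 8 passing members of each list (otherwise the 2 of smallest p), 3 neighbours a side, and the 5 likest and 3 most opposed genes, predicted genes left out; other list genes were chosen after their values were seen. Members and lists were chosen with earlier results of these data known. Alternatives were other normalizations, floors, row choices and models, and leaving out animals or hybridisations; marker sums without their brightest gene were added after the data were seen.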

Additional observations from a re-analysis of the deposited data

Results flagged for a closer look

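In 10 of 186 groups of 4 animals checked, 1 animal lay far from the others of its group, where chance gives about 1 in 20. Il7r, the interleukin 7 receptor gene, stood at 10.39 log2 units in knockout animal 3 and at 7.81 to 8.11 in the other knockout animals. In the same animal Acat1 was at 13.58 (13.81 to 13.85 in the others) and Zfp330, a neighbour of Il15, at 10.76 (12.02 to 12.25). Zfp330 was also low in control animal 4, at 10.65, with 12.22 to 12.39 in the other control animals. In knockout animal 2, Pde5a was at 9.80 (9.29 to 9.37 in the others) and Ccdc50, a neighbour of Ostn, at 13.17 (13.42 to 13.45). Among control animals, Socs2 was at 12.71 in number 4 (13.13 to 13.20 in the others) and Spp1 at 11.90 in number 1 (10.54 to 10.72).

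Il2rg stood at 5.30 in knockout animal 4 and at 5.28 in the other knockout animals, and Il21 at 5.29 in knockout animal 1 and at 5.28 in the others. In both cases the other animals lay on the floor of the scale, where values have no order.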

How the results depend on the processing

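Under 26 alternatives the Ostn difference ran from 2.03 to 3.02 log2 units and the Il15 difference from -1.13 to -0.65, with no change of direction. Leaving out an animal or taking a series alone could not reverse either, since the groups did not overlap. The ends of both ranges came from the animal number series alone (Ostn 2.03 in the lower and 3.022 in the higher). Leaving out 1 animal or hybridisation gave 2.36 to 2.72 for Ostn and -1.03 to -0.77 for Il15. The count of called genes, 1647 in the report, was 2569 after quantile normalization, 3609 with array weights, 3149 with all arrays and the animal as a random block, 2978 with the hybridisation number as a replicate block besides, 62 and 508 in the lower and higher series, and 945 (without knockout animal 3; 1062 without control animal 1) to 1693 on leaving out 1 animal or hybridisation. Of the natriuretic peptide genes 2 were called, but 1 with every row as a feature and 0 in either series. Leaving out 1 animal or hybridisation gave 1 to 2, and without knockout animal 4 both called genes were higher. The count rose to 3, with 2 higher and 1 lower, in several settings. Among these were quantile normalization, cyclic loess, the random animal block, the replicate block, an intensity trend and array weights. Of the interleukin 15 genes 1 was called, but 2 with every row as a feature, 4 under the random animal block, 4 under the replicate block, 3 with array weights and 0 in either series. Of the other myokines 4 were called, but 7 under quantile normalization, cyclic loess or a filter on dim rows, 12 under the random animal block, 10 under the replicate block, 8 with an intensity trend or array weights, and 0 and 2 in the series. Npr3 and Il15ra kept their calls in 24 of 26 alternatives each, losing them in either series alone. The series hold 2 animals a group, and other causes were not tested. Deviations of the same hybridisation number in different animals correlated at a median of 0.042 (-0.632 to 0.749). For different numbers the median was -0.017 (-0.655 to 0.63). Whether some arrays share a batch was not tested.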

Other observations

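Musclin and interleukin 15 have both been linked to oxidative metabolism in muscle. Of 13 measured regulators of mitochondrial and fat oxidation genes, 0 rose and 1 fell, where 4.28% of all genes rose and 5.01% fell. The median log2 difference was 0.064. The mitochondrial deacetylase gene Sirt3 fell 1.69-fold (log2 difference -0.76 ± 0.12, SE; limma, adjusted p = 0.00272). The coactivator gene Ppargc1a stood at 0.14 ± 0.19 (adjusted p = 0.683), the fatty acid sensor Ppard at 0.04 ± 0.13 (adjusted p = 0.894) and the energy sensor subunit Prkaa1 at 0.41 ± 0.13 (adjusted p = 0.0689), without passing.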
